A study of Mus musculus with 154 samples.

Results

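The effect of an A/J-derived chromosome 4 on liver gene expression was measured in 8 (B6.A4 X B6)F1 mice and 20 B6 mice, which are 2 of the 24 strains in the series. Every library whose strain label is (B6.A4 X B6)F1 or B6 was used. B6 is the inbred strain C57BL/6J and served as the control. A (B6.A4 X B6)F1 mouse, called a substituted mouse hereafter, carried an A/J copy of chromosome 4 from a sire of the chromosome substitution strain B6.A4, a B6 copy from its dam, and B6 alleles on every other chromosome. The A/J copy always came from the sire, so the parent of origin and the genotype cannot be told apart, and effects that need 2 A/J alleles are not visible in heterozygous mice. The substituted segment is the whole chromosome, so a difference cannot be assigned to any variant on it. All mice were 5 weeks old and were fasted overnight before the liver was taken. Per the study's methods they were males from several breeding cages. No label gives the cage, litter or sequencing run, so p-values measure the spread between mice. In the main fit this spread was estimated over all 24 strains, after adjustment for estimated hidden factors, and not from these 2 strains alone. RNA came from whole liver tissue of the caudate lobe, and in such bulk RNA fewer cells of a type and less RNA per cell cannot be told apart. The counts assigned to genes ranged from 6752637 to 25630807 per B6 mouse and from 9302934 to 21867213 per substituted mouse. All 14 hepatocyte marker genes on the list used here were measured, with summed levels of 120947 to 178338 counts per 1000000 (CPM) in B6 mice and 104711 to 162387 CPM in substituted mice. The same A/J chromosome was also present in 14 mice that carried a second A/J chromosome, namely 5 (B6.A4 X B6.A6)F1, 5 (B6.A4 X B6.A14)F1 and 4 (B6.A4 X B6.A17)F1 mice. Each of these strains has its own control without chromosome 4, the 8 (B6 X B6.A6)F1, 8 (B6 X B6.A14)F1 and 8 (B6 X B6.A17)F1 mice, which share no mouse with the comparison to B6. In 1 of them, (B6.A4 X B6.A14)F1 replicate 3, 4 Y-linked genes summed to 2.94 CPM, against 239 to 315 CPM in the 28 mice of the main comparison. Several results that rest on this mouse are also given without it.

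In a chromosome substitution strain, genes on the substituted chromosome can respond to variants in or near them, while genes elsewhere can respond to that chromosome only in trans. Whether the differences found off chromosome 4 arose in this way was not tested. Chromosome 4 of the mouse carries the cluster of major urinary protein (Mup) genes, which encode small lipid-binding proteins that the liver secretes in large amounts and the kidney passes into urine, where they carry pheromones. It also carries the Cyp4a genes, cytochrome P450 enzymes that hydroxylate the end of fatty acid chains and include classical targets of the nuclear receptor PPARalpha. Mup genes and several Cyp4a genes are expressed at different levels in male and female liver under the control of growth hormone.

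Of the 13289 genes tested, 1840 (13.8%) differed between substituted and B6 mice at a false discovery rate (FDR) below 0.05 in the model with 5 surrogate variables, which are estimated hidden factors that vary between libraries. The substituted mice had higher expression for 1025 of these genes (7.71%) and lower expression for 815 (6.13%). The median log2 fold change over all genes tested was -0.0001. On chromosome 4, 182 of 806 genes differed (22.6%), of which 104 were higher (12.9%) and 78 lower (9.68%). Off chromosome 4, 1652 of 12436 genes differed (13.3%), with 916 genes higher (7.37%) and 5.92% of the genes lower. A further 47 genes had no position in the annotation, and 6 of them differed (12.8%). Called genes on chromosome 4 had a median absolute log2 fold change of 0.329, and 20 of the 182 reached at least 1. The corresponding median off chromosome 4 was 0.292, and 74 of the 1652 reached at least 1. The shares for the other 18 autosomes and the X chromosome lay between 11.1% and 16.3%, all below that of chromosome 4. With 10 surrogate variables the calls dropped to 353, of which 78 were on chromosome 4 (9.68%) and 275 were off it, and the shares of the other chromosomes lay between 1.43% and 3.43%. Chromosome 4 had the largest share of called genes among the autosomes and the X chromosome in both models, and the number of calls depended on the model. Without substituted mouse 6 the share off chromosome 4 was 8.67%. CPM values of the 8 substituted mice did not overlap with those of the 20 B6 mice for 13 genes (0.0978% of all genes), of which 6 were on chromosome 4 (0.744% of its genes). The 6 were Mup5, Cyp4a32, Extl1, Mup9, Fam213b and Tmem245.

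**Figure D1:**
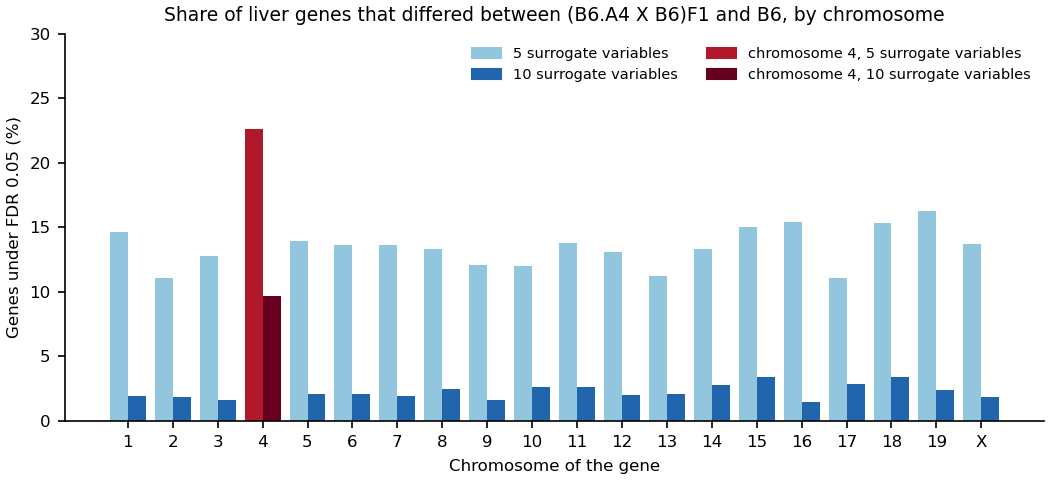
The bars give the percentage of tested genes of each autosome and the X chromosome under FDR 0.05 in (B6.A4 X B6)F1 against B6, with 5 (light) and 10 (dark) surrogate variables. Chromosome 4, in red, stands at 22.6% and 9.68%, above every other bar of the same model.

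The Mup genes showed the largest increases on the chromosome. Of the 18 Mup genes measured, 11 rose in the substituted mice (61.1%, against 12.9% of all genes on chromosome 4) and none fell. The median log2 fold change of the 18 was 1.4. Mup5 was found at 0.131 to 3.41 CPM in B6 mice (median 0.475) and at 12.8 to 40.6 CPM in substituted mice (median 24.7). Even the lowest substituted mouse was above the highest B6 mouse. The log2 fold change was 5.48 (SE = 0.27, adjusted p = 3.94e-39), a 44.5-fold difference. Mup9 ranged from 0.939 to 9.51 CPM in B6 mice (median 2.85) and from 11.7 to 159 CPM in substituted mice (median 29.7), with a log2 fold change of 4.16 (SE = 0.31, adjusted p = 7.62e-23). Mup12 ranged from 1.81 to 38.8 CPM (median 10.5) and from 38.2 to 239 CPM (median 91.7), with a log2 fold change of 3.66 (SE = 0.31, adjusted p = 3.52e-19). The Mup9 ranges were separate, while the highest B6 mouse just reached the lowest substituted mouse for Mup12. Mup17 ranged from 1.19 to 99.9 CPM in B6 mice (median 4.82) and from 14 to 429 CPM in substituted mice (median 62.5), so the groups overlapped, and its log2 fold change was 3.93 (SE = 0.55, adjusted p = 3.59e-08).

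The other called members rose by smaller amounts. Mup16 and Mup18, 2 members with low levels in B6 mice, had log2 fold changes of 2.62 (SE = 0.39) and 2.50 (SE = 0.40). The values were 1.86 for Mup1, 1.54 for Mup11, 1.44 for Mup13, 1.37 for Mup6 and 0.61 for Mup10. With 10 surrogate variables, 9 of the 11 kept an FDR below 0.05, and Mup11 and Mup13 lost it with adjusted p = 0.217 and 0.0781. Mup20, which encodes the pheromone darcin, had a log2 fold change of -0.03 with a 95% interval of -0.71 to 0.65. Mup3, the member with the highest B6 median among those not called at 4814 CPM, had a log2 fold change of 0.26 with an interval of -0.04 to 0.57, and Mup2 one of -0.16 with an interval of -0.48 to 0.17. The remaining uncalled members, Mup7, Mup8, Mup14 and Mup21, had values of 0.86, 0.52, 0.61 and 0.80. The summed level of all 18 genes had a median of 7951 CPM in B6 mice, with a range of 2468 to 12373, and of 7577 CPM in substituted mice, with a range of 5745 to 14020. The sum is dominated by abundant members such as Mup3 and Mup20, and it overlapped widely between the groups.

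Mup genes are close copies of each other, and their counts are uncertain where a read of 50 bases fits several of them. Among transcripts of the GENCODE annotation, 17.1% of the 50-base words of Mup5 also occurred in another gene, compared with 79.1% for Mup9, 85.4% for Mup12, 78.1% for Mup17 and 92.8% for Mup13. The reference transcripts of Mup5 and Mup6 (4%) were thus the ones least shared among the called members. The similarity extends to the promoters. The 250 bases upstream of the annotated start are shown for Mup9 and Mup17, which rose, and for Mup2, which was not called, on build GRCm38.p6 and the minus strand, at chr4:60421953-60422202, chr4:61595833-61596082 and chr4:60139857-60140106. The sequences are those of RefSeq, that is, of B6 and not of A/J, and the capitals mark the TATA-box-like string TATATAA.
Mup9: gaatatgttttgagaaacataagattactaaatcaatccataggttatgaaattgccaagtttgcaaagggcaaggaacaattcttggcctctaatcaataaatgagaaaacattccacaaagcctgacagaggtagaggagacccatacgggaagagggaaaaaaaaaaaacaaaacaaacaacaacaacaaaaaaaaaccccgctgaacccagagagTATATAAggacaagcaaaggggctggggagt
Mup17: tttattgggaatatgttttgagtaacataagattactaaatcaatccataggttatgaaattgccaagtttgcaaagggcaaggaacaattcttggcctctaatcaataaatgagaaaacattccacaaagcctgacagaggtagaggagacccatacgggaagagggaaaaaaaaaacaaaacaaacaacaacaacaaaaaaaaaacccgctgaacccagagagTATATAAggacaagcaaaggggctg
Mup2: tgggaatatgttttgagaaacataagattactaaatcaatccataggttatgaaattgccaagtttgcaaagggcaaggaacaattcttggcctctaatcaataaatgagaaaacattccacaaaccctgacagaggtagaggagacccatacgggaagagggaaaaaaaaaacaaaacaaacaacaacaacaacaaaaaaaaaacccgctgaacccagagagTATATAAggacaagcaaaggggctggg
In pairwise alignments each pair of the 3 differed at 2 aligned bases, an identity of 99.2%. The string TATATAA was found on either strand in the same window of 11 of 14 Mup genes with a RefSeq promoter, and in 3.6% of all 27025 genes with one. These are the B6 alleles only, and A/J sequence was not analysed here.

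**Figure D2:**
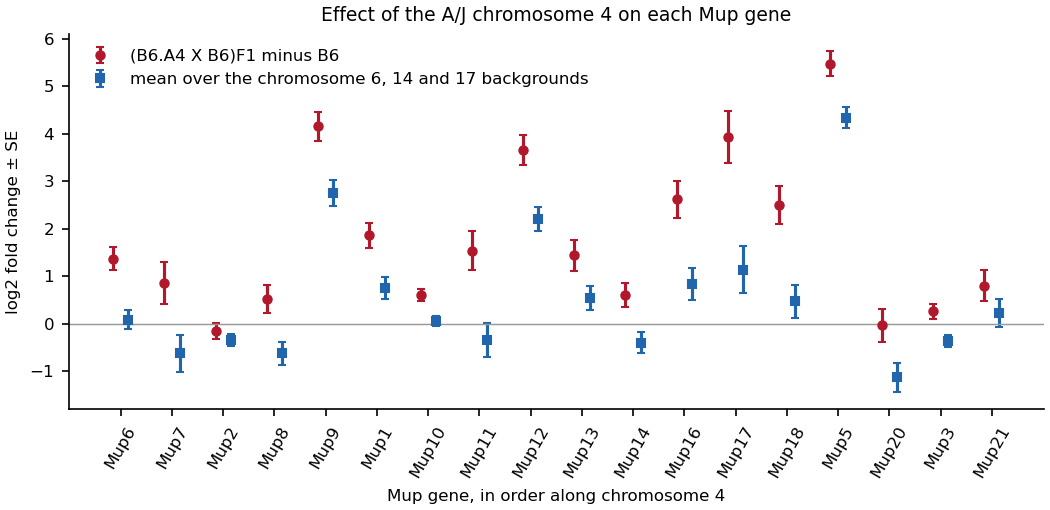
Points give the log2 fold change of each of the 18 Mup genes, with bars of 1 SE, for (B6.A4 X B6)F1 against B6 (red circles) and for the mean effect in the 3 other backgrounds (blue squares). Mup5, Mup9 and Mup12 are well above 0 in both, while Mup17, Mup18 and Mup16 lie lower in the other backgrounds.

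Among the Cyp4 genes on chromosome 4, 2 of 8 rose and 2 fell (50% called, against 22.6% of all genes on the chromosome). Cyp4a32 was expressed at 14.1 to 56.6 CPM in B6 mice (median 36.1) and at 168 to 255 CPM in substituted mice (median 190). The ranges were far apart, and the log2 fold change was 2.50 (SE = 0.12, adjusted p = 2.75e-38). Cyp4a12a, a male-biased arachidonic acid hydroxylase, ranged from 3.76 to 90.8 CPM (median 48.9) and from 47.3 CPM upward (median 65.4), with a log2 fold change of 0.74 (SE = 0.26, adjusted p = 0.0376). In contrast, the PPARalpha targets Cyp4a14 and Cyp4a10 had lower levels. Cyp4a14 fell from a median of 5540 CPM (2901 to 7073) to 3462 CPM (1559 to 4907), with a log2 fold change of -0.80 (SE = 0.21, adjusted p = 0.00616). Cyp4a10 fell from 2702 CPM (1348 to 3665) to 1992 CPM, with a highest value of 3270 CPM, with a log2 fold change of -0.55 (SE = 0.17, adjusted p = 0.0202). The ranges of these 3 genes overlapped between the groups. With 10 surrogate variables, only Cyp4a32 of the 4 remained called. The Cyp4a10 call was lost without substituted mouse 1 (-0.42, adjusted p = 0.105) or 6 (-0.52, adjusted p = 0.0562), and the Cyp4a12a call when any 1 of 9 mice was left out, with an adjusted p of up to 0.108. Of the 50-base words in their transcripts, 43.8% for Cyp4a32, 48.9% for Cyp4a12a and 29.8% for Cyp4a10 occur in other genes, compared with 0.235% for Cyp4a14.

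Outside these families, the strongest differences on chromosome 4 were mostly increases. Extl1, a glycosyltransferase of the heparan sulfate pathway, was measured at 0.606 to 4.78 CPM in B6 mice (median 1.18) and at 5.53 to 10.5 CPM in substituted mice (median 8.13). No B6 mouse reached the substituted mice, and the log2 fold change was 2.54 (SE = 0.17, adjusted p = 8.06e-26). Alad, which encodes an enzyme of heme synthesis, ranged from 38.8 to 56.1 CPM (median 48.3) and from 51.2 to 84.8 CPM (median 72.1), with a log2 fold change of 0.65 (SE = 0.07, adjusted p = 1.98e-13). Fam213b, a prostaglandin F synthase, ranged from 2.21 to 7.60 CPM (median 4.25) and from 8.96 to 13.3 CPM (median 10.4), with a log2 fold change of 1.40 (SE = 0.16, adjusted p = 5.47e-12). Alad overlapped slightly between the groups, and Fam213b did not. The acyl-CoA thioesterase Acot11 and the repeat protein Ttc39a each rose by 1.54 on the log2 scale (SE = 0.18, adjusted p = 7.33e-11), from medians of 1.39 and 1.14 CPM to 4.62 and 3.46 CPM. Tmem245, a membrane protein, lay at 36.7 to 69.4 CPM in B6 mice and at 73.7 to 128 CPM in substituted mice, with a log2 fold change of 0.63 (SE = 0.10, adjusted p = 1.66e-06).

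Decreases on chromosome 4 were smaller in size. Hp1bp3, a chromatin protein related to linker histones, had the smallest p of the genes that fell, with 74.2 to 95.5 CPM in B6 mice (median 86.2), 61.1 to 77.1 CPM in substituted mice (median 71.9) and a log2 fold change of -0.31 (SE = 0.04, adjusted p = 3.09e-11). Cep85, a centrosomal protein, fell from a median of 41.4 to 27.2 CPM, a log2 fold change of -0.74 (SE = 0.10). Dffa, the inhibitor of the apoptotic DNase, changed by -0.45 (SE = 0.07), and both calls were kept with 10 surrogate variables. The largest decrease among genes with an average of at least 2 on the log2 CPM scale was that of Atp6v0d2, a subunit of the vacuolar proton pump, at -1.50 (SE = 0.31, adjusted p = 0.000418), whose B6 mice ranged from 2.57 to 27.4 CPM and substituted mice from 0.803 to 5.34 CPM. It was not called with 10 surrogate variables (-0.96, adjusted p = 0.079). The GABA-B receptor subunit Gabbr2 followed at -0.81 (SE = 0.16). The transcription factor Tox (-0.62), the nucleosome-binding protein Hmgn2 (-0.55), the ubiquitin ligase adaptor Klhl21 (-0.52), the aldehyde dehydrogenase Aldh1b1 (-0.48) and the ephrin receptor Epha2 (-0.45) also fell. Of these 6, only Gabbr2 kept its call with 10 surrogate variables, and the call of Aldh1b1 was lost when any 1 of 10 mice was left out (adjusted p of up to 0.141) and that of Epha2 when any 1 of 12 was (up to 0.156). Without substituted mouse 1 the value of Aldh1b1 was -0.73.

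Genes of liver metabolism and secretion that lie on chromosome 4 were examined through the gene lists. Of 87 list members on the chromosome, 20 rose and 7 fell (31%, against 22.6% of all its genes), and 11 of the 20 were the Mup genes described above. Without the Mup genes, 16 of 69 were called (23.2%), 9 of them higher. Eno1, a glycolytic enolase, fell from a median of 127 to 97.4 CPM (log2 fold change -0.38, SE = 0.07, adjusted p = 0.000106). Masp2, a protease of the lectin complement pathway, changed by -0.23 (SE = 0.05, adjusted p = 0.000568), and Elovl1, a very-long-chain fatty acid elongase, by 0.25 (SE = 0.07, adjusted p = 0.00552). Orm1, which encodes the acute-phase protein orosomucoid, rose from a median of 355 to 479 CPM (0.58, SE = 0.12, adjusted p = 0.000316). These 4 calls held without any single mouse, but without substituted mouse 8 the value of Orm1 was 0.37 (adjusted p = 0.0358). Eno1 remained called with 10 surrogate variables, and Orm1, Masp2 and Elovl1 did not (adjusted p = 0.112, 0.118 and 0.279). Elovl1 was not called without surrogate variables either (adjusted p = 0.0649). Other calls were sensitive to individual animals. Cyp7a1, the rate-limiting enzyme of bile acid synthesis, ranged from 223 to 852 CPM in B6 mice (median 344) and from 352 to 989 CPM in substituted mice (median 578), with a log2 fold change of 0.65 (SE = 0.23, adjusted p = 0.0417) that was no longer called when any 1 of 12 mice was left out (adjusted p of up to 0.148). It was called with 10 surrogate variables (adjusted p = 0.0175). Without substituted mouse 8 the log2 fold change of Orm2 fell from 1.05 to 0.33 (adjusted p = 0.55), that of the complement component C8a from 0.38 to 0.31 (adjusted p = 0.075), and that of the translocon subunit Sec61b from 0.34 to 0.27 (adjusted p = 0.103). Without substituted mouse 1, Orm2 had 0.66 (adjusted p = 0.184), C8a 0.33 (adjusted p = 0.0516) and the transcription factor Jun 0.54 in place of 0.82 (adjusted p = 0.156). Without substituted mouse 6 Aldh4a1, an enzyme of proline breakdown, had -0.18 in place of -0.23 (adjusted p = 0.0577).

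Called genes were spread along the chromosome. In stretches of 10 Mb, the share of called genes reached its maximum of 44.7% (21 of 47 genes) between 60 and 70 Mb, the stretch that holds the Mup cluster. Without the 17 of the 18 Mup genes that lie there it was 36.7% (11 of 30 genes, Mup pseudogenes included), and it was 31.6% between 30 and 40 Mb (6 of 19 genes). No gene was called among the 8 between 70 and 80 Mb. In the gene-dense stretches from 100 Mb to the end of the chromosome the share lay between 19.1% and 25%. The Cyp2j genes (3 measured) and the zinc finger genes of the distal chromosome (4 measured), families that are also clustered on chromosome 4, had no called member, and their median log2 fold changes were 0.073 and 0.12.

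The same chromosome was next compared in mice that carried a second A/J chromosome, with controls that carried only that second chromosome. In the chromosome 6, 14 and 17 backgrounds, 0.233%, 2.62% and 1.06% of the 13289 genes passed FDR 0.05. The shares were 2.98%, 7.69% and 3.6% of the genes on chromosome 4 (24, 62 and 29 genes) and 0.0563%, 2.3% and 0.901% of those elsewhere (7, 286 and 112 genes). Without (B6.A4 X B6.A14)F1 replicate 3, 1.51% of the 13289 genes passed in the chromosome 14 background. Of the 182 genes called on chromosome 4 against B6, 143 had the same sign in the chromosome 6 background (78.6%), 115 in the chromosome 14 background (63.2%) and 75.8% in the chromosome 17 background. For the 1652 genes called elsewhere, the corresponding numbers were 903 (54.7%), 779 (47.2%) and 989 (59.9%). Without (B6.A4 X B6.A14)F1 replicate 3, those of the chromosome 14 background were 121 of the 182 (66.5%) and 820 of the 1652 (49.6%). The same sign in all 3 backgrounds was seen for 90 of the 182 genes (49.5%) and for 21.9% of the 1652. The mean effect over the 3 backgrounds, a contrast added after the data were seen, was called for 717 genes (5.4%), with 16.3% of the genes on chromosome 4 and 4.71% of those elsewhere. On chromosome 4, 60 genes were called with the same sign in both this mean and the comparison with B6, which is 33% of the genes called against B6 and 45.8% of those called in the mean. Off chromosome 4, 68 genes were, which is 4.12% and 11.6%. A further 2 genes on chromosome 4 and 18 off it were called in both with opposite signs. Without (B6.A4 X B6.A14)F1 replicate 3, the counts with the same sign were 60 and 81, and those with opposite signs 2 and 13. In the chromosome 14 background alone, 24 genes off chromosome 4 were called in both with the same sign and 28 with opposite signs, and without that mouse 17 and 13. Over all genes tested, whether called or not, the mean had the sign of the comparison with B6 for 58.7% of the genes on chromosome 4 and 50.6% of those elsewhere. The difference between the shares on and off chromosome 4 was not tested. The effect itself differed between B6 and the chromosome 6, 14 and 17 backgrounds for 0.587%, 4.98% and 1.24% of genes by an interaction term at FDR 0.05. Without (B6.A4 X B6.A14)F1 replicate 3, 356 genes had such a difference in the chromosome 14 background, of which 343 were among those called with all mice. Single mice also moved the number of calls within a background, to 0.12% without (B6.A4 X B6.A6)F1 replicate 2, 1.3% without (B6.A4 X B6.A14)F1 replicate 5 and 0.346% without (B6.A4 X B6.A17)F1 replicate 1.

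The 10 genes with the smallest p on chromosome 4 had the same sign in each background as against B6. Mup5 had log2 fold changes of 4.45, 4.07 and 4.51 in the chromosome 6, 14 and 17 backgrounds, and its interaction terms did not pass FDR 0.05 (adjusted p = 0.284, 0.077 and 0.346). Cyp4a32 had 2.97, 2.36 and 2.77, and Extl1 had 2.21, 1.98 and 2.32. Across all 22 mice with an A/J chromosome 4, Cyp4a32 ranged from 107 to 255 CPM, and across all mice without it from 12 to 56.6 CPM. Extl1 ranged from 5.53 to 14.4 CPM in the 22 mice and from 0.572 to 4.84 CPM in the others. Neither gene overlapped between mice with and without the A/J chromosome 4. For Mup5 the ranges were 3.61 to 40.6 CPM and 0 to 4.39 CPM, with a small overlap. Alad, Ttc39a, Acot11, Fam213b and Cep85 were also called in the mean of the other backgrounds, with log2 fold changes of 0.72, 1.87, 1.28, 0.98 and -0.56. Tmem245, by contrast, had a mean of 0.06 (adjusted p = 0.761) there, and its effect differed between the chromosome 17 background and B6 by -0.67 (adjusted p = 0.0396).

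The remaining Mup genes were less stable across backgrounds. Of the 11 that rose against B6, Mup5, Mup9, Mup12 and Mup1 were also called in the mean of the other backgrounds, at 4.34, 2.75, 2.21 and 0.75. Mup17 had 1.62 and 1.86 in the chromosome 6 and 17 backgrounds but -0.05 in the chromosome 14 background, where the difference from the effect in B6 was -3.98 (adjusted p = 0.0198). Its median was 4.82 CPM in B6 mice but already 53 CPM (8.79 to 353) in the (B6 X B6.A14)F1 controls. In (B6.A4 X B6.A14)F1 mice it was 133 CPM (31.5 to 498). The value of -0.05 is adjusted for the surrogate variables, and the CPM are not. In the chromosome 14 background the effect was lower than in B6 for 10 of the 18 Mup genes at FDR 0.05, where 4.98% of all genes differed in either direction. It was lower for 3 of them, Mup12, Mup17 and Mup6, without (B6.A4 X B6.A14)F1 replicate 3. Apart from Mup3 and Mup6, the 10 have at least 61.6% of their 50-base words in other genes, so they are not separate observations. With 10 surrogate variables, the interaction terms called over the 3 backgrounds together fell from 2.27% to 0.414%. Mup20 had negative values in all 3 backgrounds (-0.85, -1.16 and -1.38) and a mean of -1.13 (SE = 0.31, adjusted p = 0.0172).

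**Figure D3:**
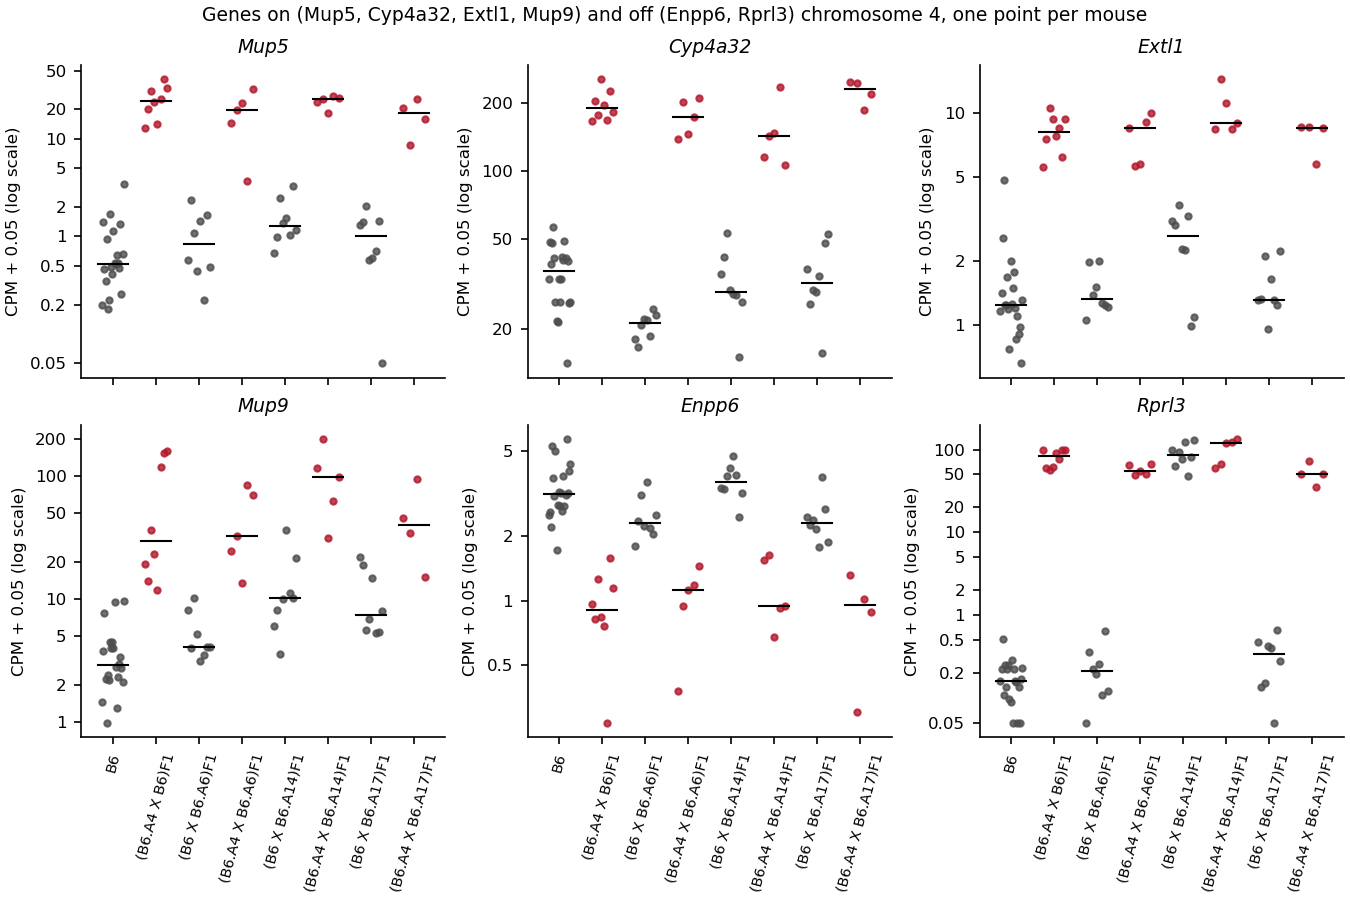
Each point is 1 mouse, with CPM plus 0.05 on a log axis, the 4 strains with an A/J chromosome 4 in red, their controls in grey, and a black line at the median. Cyp4a32, Extl1 and Enpp6 separate red from grey in every pair, and Rprl3 is also high in (B6 X B6.A14)F1.

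Off chromosome 4, the largest difference of all was that of Rprl3, which encodes an RNA related to the catalytic RNA of ribonuclease P, the enzyme that trims the 5′ end of transfer RNA precursors. It was found at 0 to 0.461 CPM in B6 mice (median 0.11) and at 55.9 to 98.4 CPM in substituted mice (median 83.5). Every substituted mouse was far above every B6 mouse, and the log2 fold change was 9.21 (SE = 0.23, adjusted p = 6.12e-72), a value that depends on very few B6 counts. Rprl3 lies on chromosome 8, at chr8:3803069-3803358 on the minus strand of GRCm38. It was present in all 22 mice with an A/J chromosome 4, at 35.6 to 134 CPM, and in all 23 mice with an A/J chromosome 14 but no A/J chromosome 4, with a lowest value of 29.5 CPM and a median of 69 CPM. In the 109 mice with neither it ranged from 0 to 2.76 CPM. The log2 fold change was accordingly 8.32 and 7.67 in the chromosome 6 and 17 backgrounds and 0.06 (SE = 0.21, adjusted p = 0.933) in the chromosome 14 background, a difference of -9.14 from the effect in B6 (adjusted p = 4.08e-46). The canonical ribonuclease P RNA, Rpph1, lies on chromosome 14 (chr14:50807449-50807767, minus strand) and had a mean of 1443 CPM in B6 mice and 1606 CPM in substituted mice, a log2 fold change of 0.18 (SE = 0.20, adjusted p = 0.577). Rprl3 and the first 280 bases of Rpph1 are printed to show how much they share, with capitals for bases that differ or have no partner in a global alignment of the whole reference transcripts.
Rprl3: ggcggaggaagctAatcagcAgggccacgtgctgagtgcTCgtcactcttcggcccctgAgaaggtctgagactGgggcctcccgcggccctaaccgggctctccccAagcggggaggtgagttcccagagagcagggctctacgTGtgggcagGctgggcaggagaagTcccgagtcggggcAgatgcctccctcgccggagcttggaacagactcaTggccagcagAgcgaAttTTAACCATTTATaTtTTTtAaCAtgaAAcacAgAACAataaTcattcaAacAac
Rpph1: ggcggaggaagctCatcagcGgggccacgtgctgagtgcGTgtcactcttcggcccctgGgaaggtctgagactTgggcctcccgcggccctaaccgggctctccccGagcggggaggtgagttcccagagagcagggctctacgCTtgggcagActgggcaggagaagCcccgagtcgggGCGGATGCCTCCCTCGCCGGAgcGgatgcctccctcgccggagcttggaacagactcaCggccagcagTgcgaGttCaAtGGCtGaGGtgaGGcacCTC
Of 279 aligned bases, 246 were identical (88.2%). Of the 50-base words of Rprl3, 2.9% occur in another annotated gene, compared with 68.1% of those of Rpph1, whose counts are therefore less certain. The A/J sequence of either locus was not analysed here.

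Enpp6, a choline-specific phosphodiesterase on chromosome 8, was lower in all 4 comparisons. It ranged from 1.67 to 5.63 CPM in B6 mice (median 3.09) and from 0.218 to 1.53 CPM in substituted mice (median 0.85). The ranges did not overlap, and the log2 fold change was -1.90 (SE = 0.20, adjusted p = 2.47e-13). It fell in the chromosome 6, 14 and 17 backgrounds by 1.41, 1.82 and 1.56 on the log2 scale (adjusted p = 0.000306, 4.01e-07 and 0.000571). Enpp6 kept its call in every alternative model run and without each mouse in turn. The same held for Rprl3, except that the filter of at least 15 counts in 75% of mice left it out of the table and gave no value for it.

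The 68 genes off chromosome 4 that were called with the same sign against B6 and in the mean of the other backgrounds comprised 39 that were higher and 29 that were lower, and 25 of the 68 were also called against B6 with 10 surrogate variables. After Rprl3 and Enpp6, those with the smallest p in the comparison with B6 were mostly genes with modest changes. Hnrnpa1, a splicing factor, fell from a median of 44.4 CPM (29.2 to 58) to 29.4 CPM (22.5 to 37.9), with log2 fold changes of -0.56 (SE = 0.07, adjusted p = 5.88e-09) against B6 and -0.32 in the mean of the other backgrounds. Snord13, a small nucleolar RNA that acts on ribosomal RNA, rose by 1.78 (SE = 0.29, adjusted p = 4.25e-06) and by 0.81. The peptidase Dpp7 had 0.40 and 0.23, the histone deacetylase Hdac5 0.41 and 0.24, the deubiquitinase Usp9x 0.20 and 0.11, and the ankyrin-repeat protein Abtb2 0.64 and 0.47. The cold-inducible RNA-binding protein Rbm3 had -0.46 and -0.35 and the chromatin protein Hmgb1 -0.20 and -0.12. All of these were named by a rule set after the data were seen, that is, the 12 smallest p among the 68 genes, not all of which are named. The genes named here also passed FDR 0.05 against B6 with 10 surrogate variables.

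**Figure D4:**
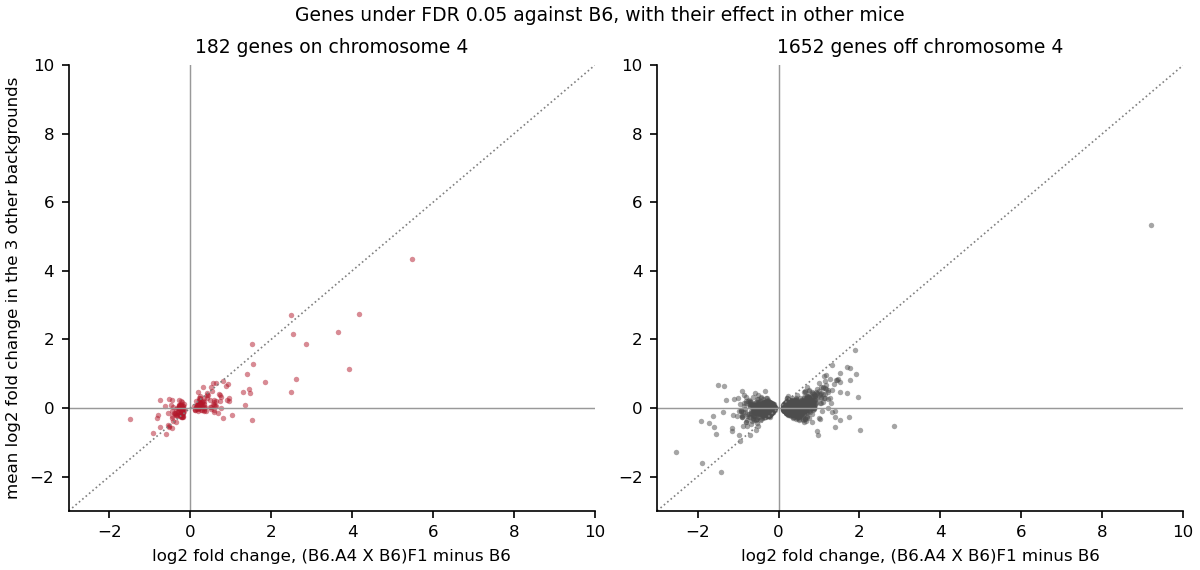
Each point is a gene under FDR 0.05 against B6, with its log2 fold change in that comparison on the horizontal axis and its mean log2 fold change in the 3 other backgrounds on the vertical axis; the dotted line marks equal values. Of the 182 genes on chromosome 4, 74.7% lie on the same side of 0 on both axes, and of the 1652 genes elsewhere, 53.8% do.

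Most genes off chromosome 4 with large differences were not called in the mean of the other backgrounds. Among called genes with an average of at least 2 on the log2 CPM scale, the 10 that rose most were Rprl3, Saa2 (2.86), Saa1 (2.01), Cyp2b10 (1.89), Snord13 (1.78), Elovl3 (1.40), Selenbp2 (1.39), Slc25a25 (1.29), Snord104 (1.28) and Cyp7b1 (1.22). Among these, only Rprl3, Snord13 and Cyp2b10, a drug-metabolizing P450 induced through the receptor CAR, were also called in the mean of the other backgrounds. With 10 surrogate variables only Rprl3 and Snord13 of the 10 remained called, and the adjusted p of the other 8 ranged from 0.0867 for Cyp2b10 to 0.5 for Elovl3. Cyp2b10 ranged from 0.121 to 58 CPM in B6 mice and from 1.83 to 83.2 CPM in substituted mice, and its log2 fold change fell to 1.17 (adjusted p = 0.126) without substituted mouse 3. Snord104, a small nucleolar RNA, was not called without substituted mouse 8 (1.05, adjusted p = 0.0787). Among the 10 that fell most were Clec2h (-1.59), Dbp (-1.55), Cib3 (-1.41), Arrdc3 (-1.37), Tfrc (-0.99), Nr1d1 (-0.98), Phlda1 (-0.95) and Usp2 (-0.90). Of these 8, only Cib3, a member of a family of calcium-binding proteins, was called in the mean of the other backgrounds (-1.86, adjusted p = 4.64e-05). It ranged from 1.27 to 13.2 CPM in B6 mice (median 4.8) and from 0.91 to 2.56 CPM in substituted mice (median 1.58), but was not called with 10 surrogate variables (adjusted p = 0.256). Tfrc, the transferrin receptor, ranged from 45 to 99.6 CPM (median 69.3) and from 26.6 to 53.5 CPM (median 38.8), and was the 1 of these 8 that kept its call with 10 surrogate variables (adjusted p = 0.00344). Its effect differed from that in B6 by 1.48 in the chromosome 14 background and by 1.65 in the chromosome 17 background (adjusted p = 0.000294 and 0.000299). Arrdc3, an arrestin-domain protein, fell from a median of 143 to 47.1 CPM (67 to 347 against 33.9 to 111), and Phlda1, Usp2 and Nr1d1 each lost their call without at least 1 mouse, with adjusted p of up to 0.0577, 0.0933 and 0.0662. Besides Rprl3 and Enpp6, genes off chromosome 4 with separate ranges were Hnrnpab (-0.19), Poldip2 (-0.15), Eid1 (-0.37), 4932438A13Rik (0.43) and 1 further unnamed gene model, which is 7 of 12436 genes in all (0.0563%).

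Acute-phase proteins are secreted by the liver in inflammation, and 7 of the 26 measured rose while none fell (26.9%). Of all genes, 13.8% were called in either direction and 7.71% were higher. Their median log2 fold change was 0.052. Saa2, a serum amyloid A, ranged from 4.61 to 396 CPM in B6 mice (median 12.4) and from 7.33 to 1755 CPM in substituted mice (median 46.6). The highest animals of both strains were far above the medians, and the groups overlapped. The log2 fold change was 2.86 (SE = 0.58, adjusted p = 0.000267) and stayed called without each mouse in turn, but without substituted mouse 8 it was 1.78 (adjusted p = 0.0453). Saa1 and Saa3 were not called without that mouse (1.18 with adjusted p = 0.207 and 0.43 with adjusted p = 0.266), and neither was Hpx, the heme-binding hemopexin (0.25, adjusted p = 0.11). Without substituted mouse 1, Saa1 and Hpx were not called either (adjusted p = 0.0904 and 0.0618). None of the 26 was called with 10 surrogate variables, and in the mean of the other backgrounds Saa2 had -0.54 (adjusted p = 0.626). Of 46 coagulation and complement genes, 8 rose and 2 fell (21.7%, against 13.8% of all genes). Cpb2, an inhibitor of clot lysis, rose to a median of 364 CPM (0.39, SE = 0.06, adjusted p = 6.21e-07) and was the 1 member still called with 10 surrogate variables, and C9, a subunit of the membrane attack complex, had 0.52 (SE = 0.14).

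Male-biased and female-biased liver genes were counted apart. Of 23 male-biased genes, 9 rose, none fell and 14 were not called, with a median log2 fold change of 0.5. The 39.1% called were all higher, against 7.71% of all genes higher and 13.8% called in either direction. The same list without its 9 members on chromosome 4 had 6 of 14 called and a median of 0.49. Of 20 female-biased genes, 7 fell, 2 rose and 11 were not called (45% called, against 13.8% of all genes), with a median of -0.56. Elovl3, a male-biased fatty acid elongase, rose from a median of 41.4 CPM (8.34 to 179) to 114 CPM (33.2 to 244), with a log2 fold change of 1.40 (SE = 0.33, adjusted p = 0.00201). Cyp7b1, a male-biased oxysterol hydroxylase, rose from a median of 108 CPM (13.4 to 295) to a range of 108 to 550 CPM, and Selenbp2 from 72.5 CPM (7.13 to 228) to 149 CPM (99.2 to 263). Gstp1, a male-biased glutathione transferase, had 0.93 (SE = 0.17, adjusted p = 4.59e-05). The ranges of these 4 genes overlapped between the groups, with the lowest values among B6 mice. Each list kept 1 call with 10 surrogate variables, and in the mean of the other backgrounds the medians were -0.06 and 0.058. The called members on chromosome 4 included Mup1 and Cyp4a12a in the male-biased list and Cyp4a10 and Cyp4a14 in the female-biased list.

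Of 21 circadian clock genes, 4 rose and 7 fell (52.4%, against 13.8% of all genes), with a median of -0.19. Dbp, an output transcription factor of the clock, fell from a median of 22.1 CPM (4.24 to 52.6) to 9.13 CPM (3.43 to 10.8), a log2 fold change of -1.55 (SE = 0.45, adjusted p = 0.0115). The clock repressor Nr1d1 fell from 19.1 CPM (9.51 to 40.1) to 9.43 CPM (3.01 to 17.1), with -0.98 (SE = 0.29, adjusted p = 0.0141). Of the 8 substituted mice, 1 lay below the lowest B6 mouse for Dbp and 4 for Nr1d1, all 8 lay below the B6 median for both, and the ranges of both genes overlapped between the groups. In the other direction, Nfil3, which opposes Dbp at shared binding sites, had 0.91 (SE = 0.24, adjusted p = 0.00495) and Cry1 0.61 (0.23 and adjusted p = 0.434 without substituted mouse 1). With 10 surrogate variables 1 gene of the list was called, and Dbp had 0.22. The hour of tissue collection is not given in the sources used here.

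The metabolic gene lists had called members in both directions. Of 44 genes of fatty acid oxidation and PPARalpha targets, 7 fell and none rose, with a median of -0.12. The 15.9% called was near the 13.8% of all genes called in either direction, while 6.13% of all genes were lower. Cpt1a, which admits fatty acids to mitochondria, fell from a median of 798 CPM (499 to 1075) to 634 CPM (435 to 717), with -0.43 (SE = 0.10, adjusted p = 0.00187). The dehydrogenase Acadl had -0.37, the ketone body enzyme Bdh1 -0.51 and the receptor gene Ppara itself -0.34. Of 50 genes of amino acid catabolism and the urea cycle, 10 fell and 3 rose (26%), with a median of -0.11. They included Mat1a, which makes S-adenosylmethionine (-0.41), and the glyoxylate aminotransferase Agxt (-0.40). Of 21 gluconeogenesis genes, 2 rose and 4 fell (28.6%). G6pc, whose product releases free glucose, rose from a median of 409 CPM (up to 854) to 692 CPM (393 to 1052), with 0.91 (SE = 0.19, adjusted p = 0.000505), as did Slc25a25, a mitochondrial ATP carrier, while the aspartate aminotransferase Got2 fell (-0.26). Of 22 glycolysis and fructose genes, 4 fell and none rose (18.2%), among them Eno1 and the lactate dehydrogenase Ldha (-0.33, SE = 0.10). With 10 surrogate variables, no member of the fatty acid oxidation or gluconeogenesis lists was called and 1 member each of the amino acid and glycolysis lists was. Of 29 bile acid genes, 6 rose and 2 fell (27.6%), with Cyp7a1, Cyp7b1 and the sterol 27-hydroxylase Cyp27a1 (0.28, SE = 0.08) among those that rose and the later enzyme Hsd3b7 (0.23) called only while substituted mouse 3 was included (0.20 and adjusted p = 0.0524 without it). The lists for cholesterol synthesis (2 of 27), lipoproteins (3 of 30) and fatty acid synthesis (5 of 23) had 7.41%, 10% and 21.7% of members called.

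Of 32 genes of endoplasmic reticulum stress, 10 rose and 2 fell (37.5%, against 13.8% of all genes, which is also the reference for the lists below). In the mean of the other backgrounds 13 of the 32 were called, where 5.4% of all genes were. The median there was 0.16, against 0.11 in the comparison with B6. Creld2, a chaperone-like secretory protein, had log2 fold changes of 0.75 (SE = 0.18, adjusted p = 0.00183) against B6 and 0.53 (adjusted p = 0.0179) in the mean of the other backgrounds. The values were 0.29 and 0.20 for the co-chaperone Dnajc3, 0.41 and 0.18 for the disulfide isomerase Pdia6, and 0.31 and 0.11 for Edem2, which acts in the disposal of misfolded glycoproteins. The mean of Dnajc3 passed the test (adjusted p = 0.0154), and those of Pdia6 and Edem2 did not (0.167 and 0.242). None of the 32 was called against B6 with 10 surrogate variables. Among 25 immediate early and heat shock genes, 2 rose and 5 fell (28%), with the small chaperone Hspb1 at 1.51 (SE = 0.26, adjusted p = 8.69e-06) and Dnajb1 at -0.40. Hspb1 kept its call with 10 surrogate variables (adjusted p = 0.0182). Of 32 NRF2 targets, 5 rose and 3 fell (25%), including Hmox1, the heme oxygenase, at -0.62 (SE = 0.16). Hmox1 had -0.36 without B6 mouse 14 (adjusted p = 0.0141) and was not called with 10 surrogate variables (adjusted p = 0.0914). Among 49 interferon-stimulated genes 4 were called (8.16%), among them Bst2 (0.47) and Ifi27 (0.51). The share was 6.49% for the 77 respiratory chain genes, 6.45% for the 31 cell cycle genes, 10% for the 20 p53 targets, 10.7% for the 28 genes of the ATF4 response, 16.1% for the 31 genes of insulin and glucagon signalling and 19.5% for the 41 P450 genes of families 1 to 3. The last list included Cyp2g1, a P450 that fell from a median of 0.779 to 0.27 CPM.

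**Figure D5:**
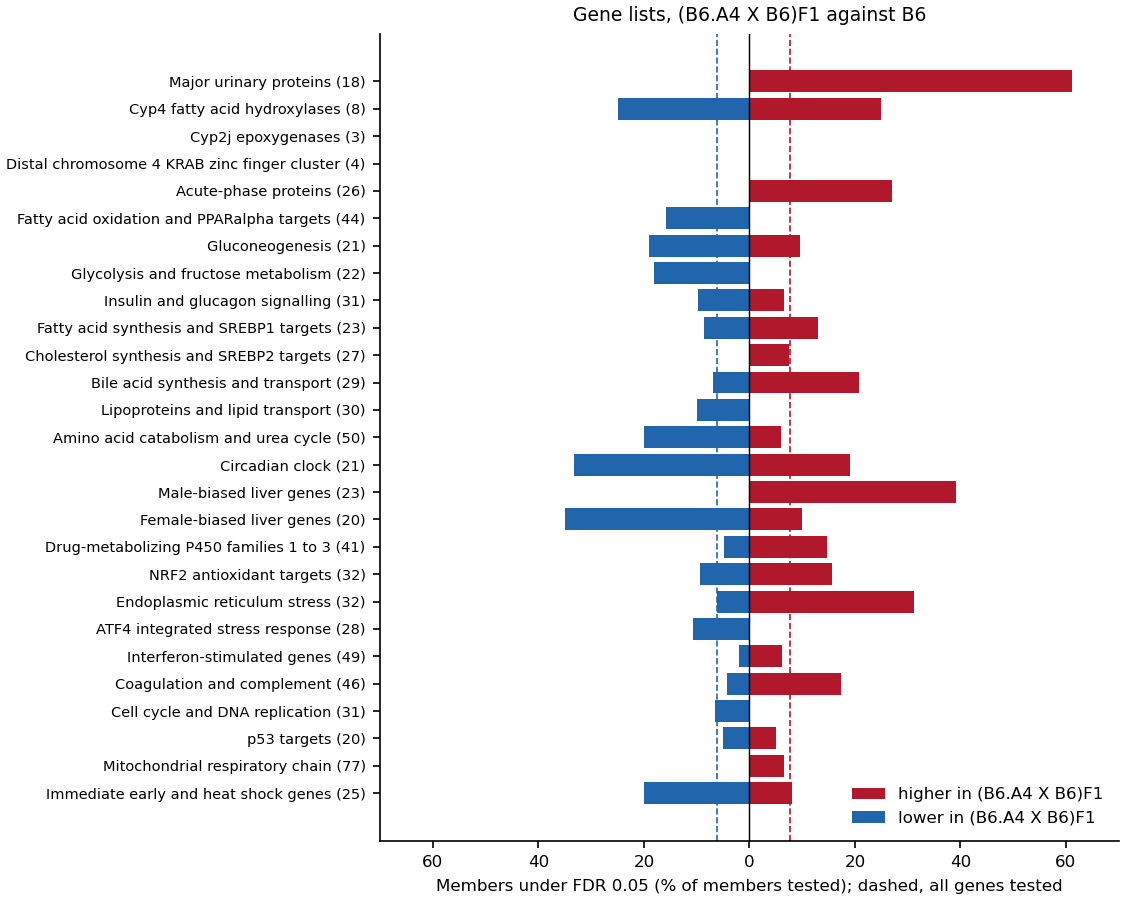
For each gene list the bars give the percentage of tested members (their number in brackets) under FDR 0.05 that were higher (red, right) or lower (blue, left) in (B6.A4 X B6)F1 than in B6, and the dashed lines give the same for all genes, 7.71% and 6.13%. The major urinary proteins and the male-biased genes reach furthest to the right, at 11 of 18 and 9 of 23 members.

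Markers of other liver cell types included called genes, namely 3 of 14 for macrophages (21.4%), 4 of 13 for endothelial cells (30.8%, 1 higher and 3 lower) and 2 of 13 for stellate cells and fibroblasts (15.4%, both higher), against 13.8% of all genes. Each of the 3 lists had 1 marker called with 10 surrogate variables. The summed level of 14 macrophage markers ranged from 588 to 1040 CPM in B6 mice and from 627 to 910 CPM in substituted mice, that of 13 endothelial markers had medians of 698 and 644 CPM, and that of 13 stellate cell and fibroblast markers medians of 600 and 616 CPM. All 3 ranges of the substituted mice lay within those of B6. Individual markers that were called went both ways, with the Kupffer cell lectin Clec4f at 0.27, the scavenger receptor Marco at -0.65 (adjusted p of up to 0.101 without 1 of 7 mice), and the endothelial genes Ehd3 and Oit3 at -0.35 and -0.28. None of the measured markers of cholangiocytes (5), lymphocytes (6), neutrophils (3) and exocrine pancreas (1) was called, and 1 of 6 erythroid markers was. The lymphocyte markers summed to 26.6 to 45.4 CPM and 25.3 to 38.3 CPM, and the neutrophil markers to 1.54 to 17.8 CPM and 2.49 to 10.2 CPM. The part of cell composition in the differences described above was not tested.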

How the data were processed

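Liver RNA was sequenced as single-end reads of 50 bases. Per the study's methods, TopHat2 alignment was to mm10, with unmapped reads then tried on an individualized A/J genome, and the authors deposited 1 table of HTSeq counts per GENCODE gene without normalization. All 24 strains were fitted together by edgeR's quasi-likelihood F-test (edgeR 4.0.16 in R 4.3.3) with TMM normalization, 8 main effects, 15 interactions and 5 surrogate variables (sva 3.50.0), and Benjamini-Hochberg adjustment over all 13289 genes of the table. The authors also used edgeR. Standard errors were derived from the log2 fold change and the F statistic. Adjusted p-values in the text are from this test unless another is named, and a gene is called when its FDR is below 0.05. CPM values use TMM library sizes. Gene positions are from GENCODE, which gave none for 47 genes. Named genes were the 12 highest and 12 lowest log2 fold changes on chromosome 4 and 10 and 10 elsewhere among called genes with an average of at least 2 on the log2 CPM scale, the 10 smallest p on chromosome 4, at most 4 called members per list, and the list members on chromosome 4; unnamed gene models were left to counts. The genes without overlap between groups and the 12 recurrent genes were added after seeing the data. The members and lists were chosen with earlier results of these data known. On simulated counts for the comparison with B6 over 13289 genes, 99 of 100 genes changed by 1 on the log2 scale and 78 of 100 changed by 0.5 were recovered, with 6 false calls. Those counts were drawn without hidden factors, without correlation between genes and without differences among the other strains. The 6 false calls are therefore no estimate of the errors among the calls made on the real counts. Alternatives were 0 and 10 surrogate variables, the 28 mice alone, DESeq2 1.42.0 and its size factors, a filter of at least 15 counts in 75% of mice, and a threshold of 0.01. Each mouse was also left out in turn, with the surrogate variables and dispersions of the full fit kept. The influence of the left-out mouse on those quantities therefore remained. Some genes that the rule names are not reported here.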

Additional observations from a re-analysis of the deposited data

Results flagged for a closer look

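For 11 of the 110 genes examined, 1 of the 8 substituted mice stood apart from the other 7 by Dixon's criterion. Chance alone sets apart about 1 in 20 groups of normally distributed values. That rate does not hold for CPM of skewed genes, or for genes named because they were called, so the 11 are not an excess over it. The mouse set apart, not always the same animal, had the highest value for Orm1 at 1055 CPM (next 577), Jun at 39.1 CPM (next 11.1), Hspb1 at 11 CPM (next 5.02), Saa3 at 34.1 CPM (next 8.61), Saa2 at 1755 CPM (next 658), Agxt at 230 CPM (next 177), Cyp2b10 at 83.2 CPM (next 14.4), Nfil3 at 49.8 CPM (next 28.5), Saa1 at 2093 CPM (next 783) and Cry1 at 38.1 CPM (next 13.5). It had the lowest value for Hmgn2 at 1.96 CPM (next 4.23).

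The effect of chromosome 4 differed from that in B6 by an interaction term of the edgeR fit for 24 of these genes in the chromosome 14 background, against 4.98% of all genes. Most of the genes examined had been called against B6, and the interaction term subtracts that same effect. Their count is therefore no test of whether effects differ more often among them. Of the 24, 9 remained called without (B6.A4 X B6.A14)F1 replicate 3. Differences on the log2 scale that remained were -2.13 for Mup12 (-1.85 without that mouse), -3.98 for Mup17 (-3.78 without that mouse), -1.65 for Mup6 (-1.47 without that mouse), 1.08 for Klhl21 (1.08 without that mouse), -9.14 for Rprl3 (-9.25 without that mouse), 1.48 for Tfrc (1.48 without that mouse), 0.78 for Dnajb1 (0.73 without that mouse), 0.28 for Hnrnpab (0.26 without that mouse) and -2.47 for Elovl3 (-2.19 without that mouse). Those not called without it were -1.64 for Mup1 (-1.41 without it), -2.63 for Mup16 (-2.41 without it), -2.47 for Mup18 (-2.18 without it), -0.78 for Orm1 (-0.71 without it), -0.81 for Mup10 (-0.74 without it), -2.47 for Mup11 (-2.22 without it) and 1.11 for Tox (0.87 without it). The same held for Mup8 at -1.77 (-1.46), Mup3 at -0.89 (-0.68), 4932438A13Rik at -0.40 (-0.40), Snord13 at -1.64 (-1.78), Saa2 at -3.57 (-3.39), Mat1a at 0.59 (0.59), Selenbp2 at -2.30 and Hmox1 at 0.90 (0.84). In the chromosome 17 background the differences were -0.67 for Tmem245, 1.65 for Tfrc and -0.53 for 4932438A13Rik. In the chromosome 6 background they were -0.49 for 4932438A13Rik and 0.61 for Agxt.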

How the results depend on the processing

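The share of genes called against B6 fell from 13.8% to 2.66% with 10 surrogate variables, 7.03% in the 28 mice alone without surrogate variables, and 5.6% at FDR 0.01. On chromosome 4 these settings gave 9.68%, 13.2% and 12.5%, and off it 2.21%, 6.62% and 5.16%. Leaving out 1 mouse gave 8.67% to 14.9% of the genes off chromosome 4, the lowest without (B6.A4 X B6)F1 replicate 6. At FDR 0.01 the chromosome 6, 14 and 17 backgrounds had 0.12%, 0.617% and 0.293% of genes called and their mean 1.8%. Without surrogate variables the chromosome 14 and 17 backgrounds had 6.3% and 4.28%, the mean of the 3 backgrounds 15.2% and the interaction terms together 4.3%, and with 10 surrogate variables the mean and the interaction terms had 3.42% and 0.414%. The filter on 75% of mice gave 0.768% in the chromosome 17 background. Leaving out 1 mouse gave 0.12% to 0.181% in the chromosome 6 background, 1.3% to 2.94% in the chromosome 14 background and 0.346% to 0.843% in the chromosome 17 background. Called genes of the 27 gene lists were 20.5% of the members, 11.9% without surrogate variables and 3.15% with 10. The log2 fold change changed sign for Mup20 when 1 mouse was left out (-0.19 to 0.07, with values above 0 of 0.01, 0.02, 0.03 and 0.07) and for Ppara and Dbp with 10 surrogate variables (0.01 and 0.22). Of the called genes examined one by one, 39 kept their call with 10 surrogate variables, 62 lost it and 2 changed sign, and 21 lost it without at least 1 mouse. The cause was not tested. No paired analysis was possible because replicate numbers follow the order of the samples and pair no mice.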
